A study of Homo sapiens with 24 samples.

Results

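The question asked was how the transcriptome of chondrocytes without WNK2 function differs from that of wild-type cells when both are kept in a hyperosmotic medium. RNA-seq counts were used from 8 of the 24 libraries of the series, all genes that were expressed in them included. By their labels, the 4 WNK2- Sor libraries came from T/C-28a2 cells deleted for WNK2, and the 4 WT Sor libraries from the parental T/C-28a2 cells. T/C-28a2 is an immortalised line of human costal chondrocytes. Both groups had been grown for 7 days in medium with 100 mM sorbitol (400 mOsm), and the libraries were made from poly(A) RNA. The WNK2- cells are a clonal line grown from a single cell after exon 2 of WNK2, which holds the start codon, was removed with CRISPR/Cas9 ribonucleoproteins. Differences between this clone and the parental cells that have nothing to do with WNK2 therefore cannot be told apart from those of the deletion. The 4 libraries of a group are biological replicates of a single line, so the p-values measure the spread between cultures and not between clones. Where a difference is set beside the one in isotonic medium (300 mOsm), the latter came from 4 WNK2- Ctr and 4 WT Ctr libraries of the same lines, which share no library with the sorbitol groups. Libraries are called WT or null after their labels throughout. The WNK2 counts of several groups, WT Sor included, ran against those labels, so each direction given here rests on the labels.

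Chondrocytes are the cells that build and keep the cartilage of joints, and the tissue they live in has a higher and more variable osmolarity than most. WNK kinases (With No lysine (K)) are protein kinases that respond to chloride and to cell volume. Under hyperosmotic stress they phosphorylate the kinases SPAK (STK39) and OSR1 (OXSR1), which in turn control the SLC12 cotransporters of sodium, potassium and chloride. Cells that stay in a hyperosmotic medium also turn on genes, among them those for enzymes and transporters of small organic solutes, largely through the transcription factor NFAT5.

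Each library held the reads counted on 62703 Ensembl genes. Total counts ran from 14979799 to 17588934 in WT Sor and from 18578564 to 25664619 in WNK2- Sor, so the null libraries were the deeper ones. Values are given as normalized counts (counts scaled to the same effective library size, the mean of the series). Mean values are ± SD (n = 4), log2 fold changes are WNK2- Sor relative to WT Sor ± SE, and p-values are Benjamini-Hochberg adjusted over all 16600 genes tested with edgeR's quasi-likelihood test (edgeR adjusted p). Genes with an adjusted p under 0.05 are called higher or lower. The share of reads on mitochondrial genes was 3.02% to 3.49% across the 8 libraries. The WNK2- Sor replicates differed more among themselves than the WT Sor replicates, since the chi-square of a pair of libraries, divided by its degrees of freedom, was 5.93 to 24.6 in the former and 2.26 to 4.91 in the latter, and the pairs with WNK2- Sor replicate 2 were the most different. Of 1061 positioned members of the gene lists used here, 81 had no count in any of the 24 libraries, and 77 of these (95.1%) overlap another annotated gene, compared with 61.7% of the other members. SOX9, ACTA2, TIMP1, TIMP3, TNC, MMP1, ITGA5 and IRF1 are among them, and nothing can be said here about their expression.

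WNK2 (ENSG00000165238, GRCh38 chromosome 9, 93184916 to 93320572, plus strand) was counted in both groups. WT Sor libraries had 289.6, 319, 319 and 283 normalized counts and WNK2- Sor libraries 340.1, 419, 311 and 367. The ranges overlapped, and the difference did not pass the test (log2 fold change 0.25 ± 0.20, edgeR adjusted p = 0.33). Raw counts were 266 to 314 in WT Sor and 322 to 503 in WNK2- Sor, and a fit of the 8 libraries alone called WNK2 higher in the null libraries (log2 fold change 0.24, edgeR adjusted p = 0.0478). WNK2 was thus not lower in the libraries labelled WNK2- Sor. Reads were counted over the whole gene, and these counts do not separate transcripts with exon 2 from transcripts without it.

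**Figure D1:**
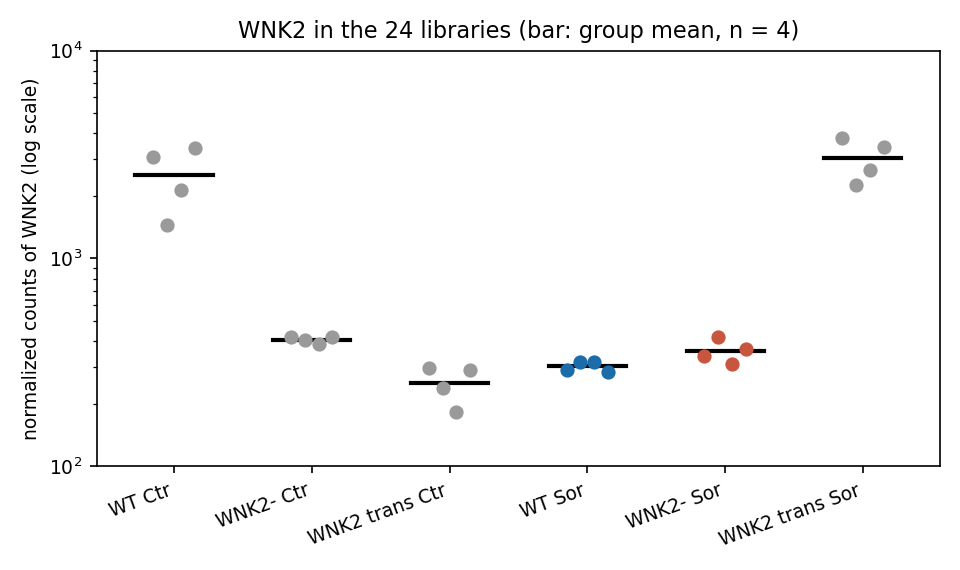
Normalized counts of WNK2 (log axis) in the 24 libraries of the 6 labelled groups; points are libraries and bars are group means, with the 2 groups compared here in colour. WT Sor and WNK2- Sor sit between 283 and 419, while WT Ctr and WNK2 trans Sor lie at 1441 and above.

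Across the series WNK2 spanned a wide range. The raw counts of WT Ctr libraries were 1217 to 2568 and those of WNK2- Ctr libraries 440 to 501. They were 163 to 290 in cells labelled as transfected with WNK2 in isotonic medium (WNK2 trans Ctr) and 2237 to 3739 in the transfected cells under sorbitol (WNK2 trans Sor). The difference between WNK2- and WT was -2.63 ± 0.20 in isotonic medium (edgeR adjusted p = 1.54e-10), and it differed from that under sorbitol by 2.88 ± 0.28 on the log2 scale (edgeR adjusted p = 2.77e-07). In isotonic medium WNK2 was therefore lower in the cells labelled as transfected with it than in the untransfected wild type, against both labels. The differences between media on which the text turns are therefore given with the libraries labelled WT Ctr, as in the design, and with those labelled WNK2 trans Ctr in their place, a comparison added after the data were seen. A difference from isotonic medium with no comparator named is from WT Ctr alone. With the latter the isotonic difference of WNK2 was 0.69 ± 0.20, and it differed from that under sorbitol by -0.44 ± 0.29 (edgeR adjusted p = 0.551). The sorbitol comparison is touched as well. The WT Sor libraries held 303 ± 19.0 normalized counts of WNK2, not above the 407 ± 13.9 of WNK2- Ctr or the 359 ± 46.1 of WNK2- Sor and far below the 2520 ± 901 of WT Ctr, so their WNK2 level goes against the label wild type. Over the 500 most variable genes the first principal component placed WT Sor (-20.6 to -18.2) beside WT Ctr (-29.7 to -23.3) and apart from WNK2- Ctr (26.82 to 27.95) and WNK2- Sor (47.2 to 49.6). WNK2 trans Ctr lay at -42.3 to -36.1 and WNK2 trans Sor at 6.08 to 10.98. The study's supplement also prints normalized WNK2 counts by group. Its values for wild-type cells under sorbitol and for transfected cells in isotonic medium were far above those of WT Sor and WNK2 trans Ctr here. For the other groups its values were close to those here. It reports no significant change of WNK2 after sorbitol or transfection. Whether libraries were exchanged between groups was not tested, and the labels were used as given. WNK1, the broadly expressed member of the family, had 6869 ± 402 normalized counts in WT Sor and 8481 ± 266 in WNK2- Sor, and this difference did not pass the test (log2 fold change 0.30 ± 0.13, edgeR adjusted p = 0.0536). WNK3 had 299 ± 17.3 and 261 ± 41.9 (edgeR adjusted p = 0.323), and WNK4 had 788 ± 17.6 and 796 ± 33.4 (edgeR adjusted p = 0.931). None of the 4 kinases was called, but WNK1 was called higher in 6 of the alternative settings, DESeq2 among them (log2 fold change 0.33, adjusted p = 0.0336). All 4 were called once a trend with GC content and gene length had been taken out of each library, WNK2 then at 0.61 (edgeR adjusted p = 3.58e-06).

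Of the effectors of the WNK kinases and the cotransporters they act on, 17 of 19 were tested, 6 were higher and 4 were lower. NEDD4L, an E3 ubiquitin ligase that acts on ion channels and transporters, was the most increased. It had 1435, 1238, 1518 and 1356 normalized counts in WT Sor and 6280.4, 5708, 6179.6 and 6041 in WNK2- Sor, with no overlap (log2 fold change 2.13 ± 0.11, edgeR adjusted p = 4.95e-14). The potassium-chloride cotransporter gene SLC12A7 rose from 1535 ± 37.1 to 3495 ± 301 (1.19 ± 0.13). It lies in a stretch of chromosome 5 where the 24 nearest tested genes were also higher, with a median log2 fold change of 1.02. SLC12A8 fell by 3.21-fold (-1.68 ± 0.13), and SLC12A5, which encodes the cotransporter KCC2, fell from 250.3 ± 19.7 to 117 ± 8.03 (median of neighbours -0.32). The serum- and glucocorticoid-induced kinases moved apart, with SGK1 lower (-0.50 ± 0.08) and SGK3 higher (0.90 ± 0.25).

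The genes of the tonicity response did not move as a block. Of 17 genes 15 were tested, 6 were higher and 3 lower. Aldose reductase (AKR1B1), which makes sorbitol inside the cell and is a standard target of NFAT5, had 23262, 23733, 23907 and 23908 normalized counts in WT Sor and 46576, 45522, 45316 and 46406 in WNK2- Sor. The null libraries held 1.94 times the WT level (log2 fold change 0.96 ± 0.11, edgeR adjusted p = 1.01e-07). In isotonic medium the levels of AKR1B1 were 8401 ± 1468 and 10210.0 ± 633 in WT Ctr and WNK2- Ctr, lower than under sorbitol in both genotypes. The betaine transporter SLC6A12 rose from 161 ± 19.5 to 315 ± 23.9 (0.97 ± 0.22) and the chaperone HSPA4L rose by 0.87 ± 0.15. The glycine transporter SLC6A9 was lower in the null libraries, at 537 ± 52.2 compared with 1370.0 ± 77.3 (-1.35 ± 0.21), as was the amino acid transporter SLC38A2 (-0.48 ± 0.12). Channels of volume control and mechanosensing split evenly, with 5 of 16 higher and 5 lower. PIEZO2, a mechanically gated cation channel, fell from 6752 ± 302 to 1651 ± 102, and TRPV4, an osmosensitive calcium channel of chondrocytes, fell from 232 ± 24.5 to 94.8 ± 23.6. The calcium-activated potassium channel KCNMA1 rose from 1320.4 ± 72.98 to 3657 ± 95.03, and LRRC8E, a subunit of the volume-regulated anion channel, rose by 1.06 ± 0.18 (median of neighbours -0.33).

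Differences were widespread. Of the 16600 genes tested, 7690 were called (46.3%), 3928 higher (23.7%) and 3762 lower (22.7%) in WNK2- Sor. Without WNK2- Sor replicate 2 the number called was 7269. A change of at least 2-fold was called for 2953 genes (17.8%), 1492 higher and 1461 lower (1884 genes where at least 10 counts were required in each of the 8 libraries), and a change of at least 8-fold for 204 higher and 159 lower. All 4 libraries of one group lay above all 4 of the other for 53.9% of genes, so an absence of overlap is common in this comparison. The median log2 fold change of all tested genes was 0.02, with quartiles of -0.41 and 0.44. These shares are the background for every list described here. The first principal component held 69.8% of the variance of the 500 most variable genes.

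These counts rest on the label WT Sor, against which the WNK2 counts ran. With the 4 libraries labelled WNK2 trans Sor in place of WT Sor, a comparison added after the data were seen that shares the WNK2- Sor libraries, 5523 genes were called, 1659 of them with a change of at least 2-fold. WNK2 was then lower in WNK2- Sor (log2 fold change -3.08 ± 0.21, edgeR adjusted p = 1.45e-11). Of the 200 genes other than WNK2 that are named here and were called with WT Sor, 153 were called in the same direction, 24 kept their sign without a call and 23 turned sign. CXCL8, MMP9, NOG, NPAS2 and ADM, higher relative to WT Sor, were called lower relative to WNK2 trans Sor, and ID1 and CHAC1 were called higher. Members of the cartilage matrix list called lower were 4 in place of 10. Interferon response genes called lower were 22 in place of 21. In nuclear transport 7 genes were higher and 4 lower, and in DNA replication and mitosis 5 were higher and 11 lower. In glycolysis and hypoxia 6 were higher and 11 lower. Of the genes compiled as lower in osteoarthritic tissue 16 were higher and 9 lower, and of those compiled as higher there 28 were higher and 31 lower. The balance of higher and lower calls turned with the sorbitol comparator in these last 4 lists. It also turned in the WNK effectors (4 higher and 5 lower) and in the chondrocyte transcription factors and hypertrophy genes (2 higher and 3 lower). The directions given for genes and lists are those relative to the libraries labelled WT Sor.

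Some of the differences ran along chromosomes. The median log2 fold change was 0.33 on chromosome 14 and 0.22 on chromosome 15, and -0.28 on chromosome 17 and -0.24 on chromosome 19. In isotonic medium the medians of the same chromosomes were 0.25, 0.15, -0.20 and -0.14. For 3693 tested genes the 24 nearest tested genes had a median of 0.3 or more in size. Of these 3693 genes 1952 were called, beside 7690 of all 16600 tested genes (46.3%). Whether copy number differs between the clone and its parent was not tested. The neighbour median is given beside each named gene that lies in such a stretch.

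**Figure D2:**
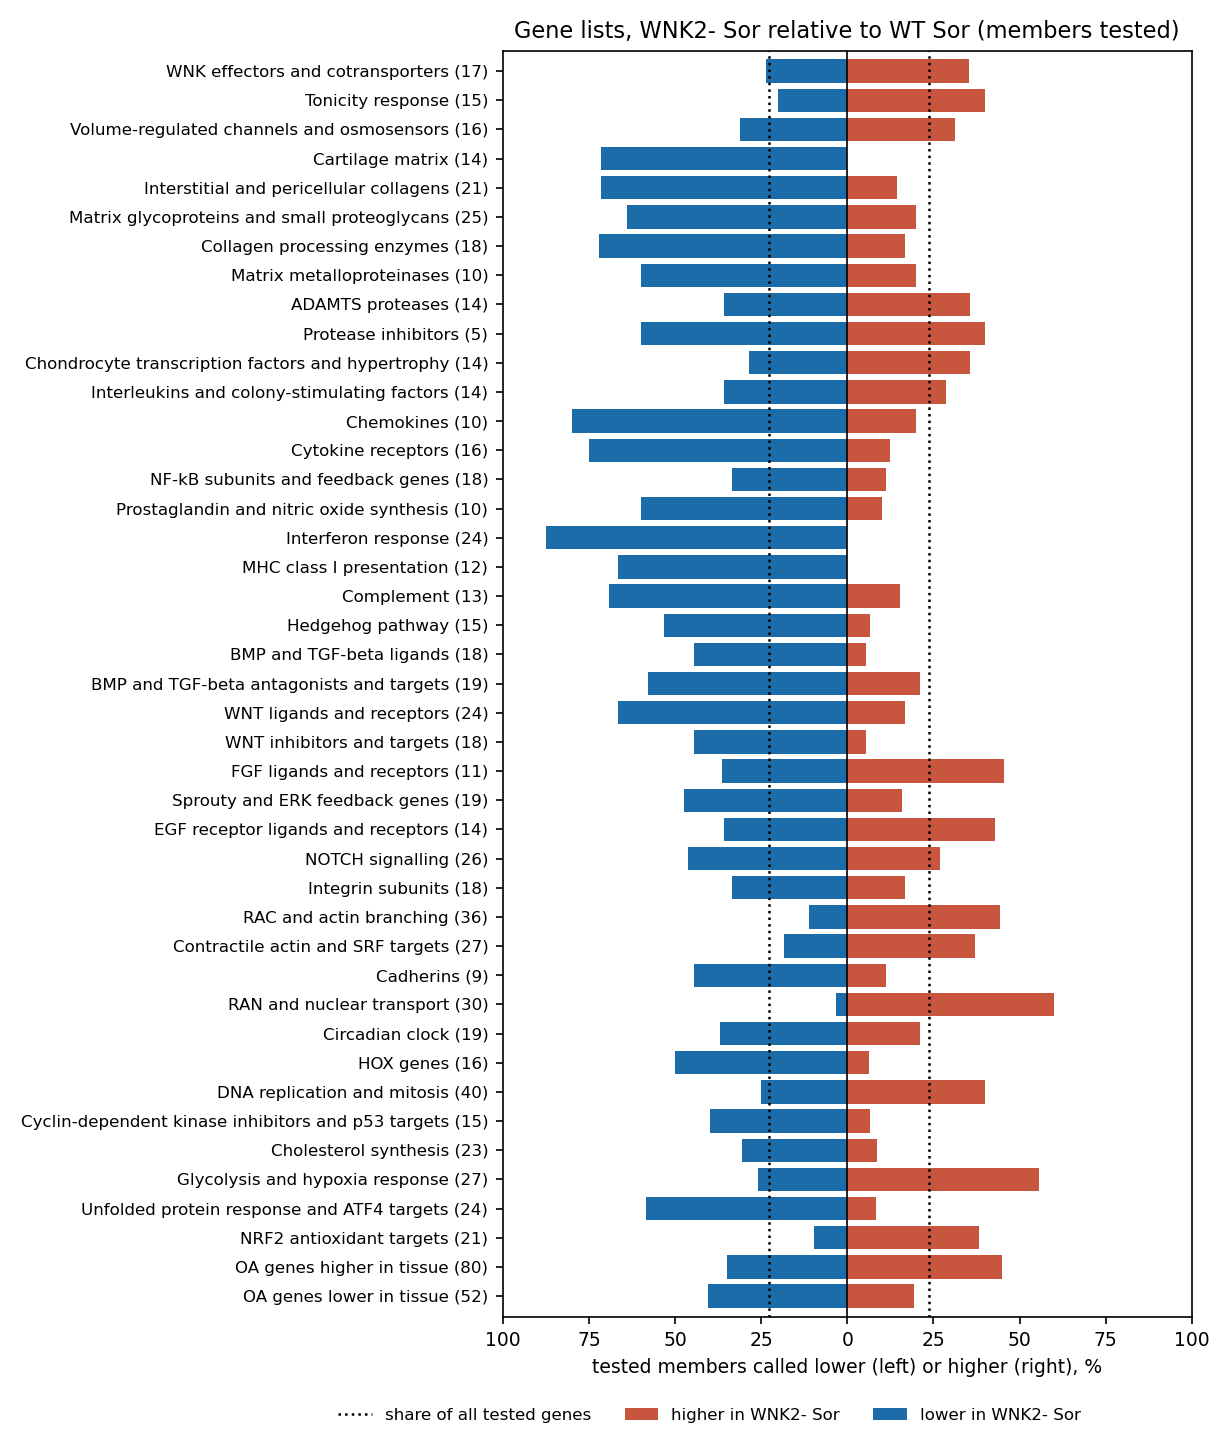
Share of the tested members of each gene list called higher (right) and lower (left) in WNK2- Sor relative to WT Sor, with the number of members tested beside each list. Dotted lines mark the shares over all tested genes, 23.7% higher and 22.7% lower; interferon response, cartilage matrix and MHC class I genes have no member called higher.

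The markers of the labelled cell type were low. Summed over 12 chondrocyte markers, expression was 88.8 to 96.1 CPM (counts scaled to a fixed library total) in WT Sor and 26.1 to 30.0 CPM in WNK2- Sor, with SOX9 at 0 in both groups. Of the 8 tested, 5 were lower and 0 higher. Fibroblast and smooth muscle markers summed to 214 to 240 CPM in WT Sor and 87.1 to 95.9 CPM in WNK2- Sor, and ACTA2 and THY1 were at 0. Endothelial markers summed to 71.3 to 81.3 and 56.0 to 66.6 CPM, and blood and immune markers to 12.2 to 18.4 and 7.75 to 9.20 CPM. Epithelial markers summed to 848 to 908 CPM in WT Sor and 858 to 1040 CPM in WNK2- Sor, and these ranges overlapped. Of 8 fibroblast and smooth muscle markers tested, 2 were higher and 5 lower. PDGFRB, a receptor of mesenchymal cells, had 3595, 3416, 3516 and 3159.8 normalized counts in WT Sor and 847, 888, 793 and 971 in WNK2- Sor. Of 8 endothelial markers tested, 3 were higher, all at least 2-fold, and 1 was lower. The lower one, PECAM1, fell by 2.19-fold, while TIE1 rose by 3.04-fold. Of 3 blood and immune markers tested, 1 was higher and 1 lower, and the lower one, the monocyte marker CD14, fell from 189.6 ± 27.6 to 34.2 ± 1.64. In bulk RNA, fewer cells of a type and less RNA per cell cannot be told apart.

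Genes of the cartilage matrix were lower in the null libraries. Of 22 genes 14 were tested, 10 were lower and none was higher at the threshold, with a median log2 fold change of -1.82 compared with 0.02 over all genes. ACAN, the gene of aggrecan, the large proteoglycan that holds water in cartilage, had 126, 108, 99.4 and 113 normalized counts in WT Sor and 7.51, 10.8, 3.86 and 20.6 in WNK2- Sor. The WT libraries were all high and the null libraries all low (log2 fold change -3.38 ± 0.39, edgeR adjusted p = 8.09e-08). COL2A1, the gene of type II collagen, had 43.6, 69.3, 70.01 and 52.1 in WT Sor and 9.56, 15.01, 7.73 and 15.9 in WNK2- Sor (log2 fold change -2.28 ± 0.26, edgeR adjusted p = 8.53e-08). Both genes are weakly expressed in these cells, and the null libraries held few reads of either. COL9A2, a chain of the type IX collagen that binds to type II fibrils, fell from 189.5 ± 10.4 to 15.98 ± 3.71 (-3.54 ± 0.35), and COL9A3 from 206 ± 11.9 to 47.7 ± 10.7. MATN3, the gene of matrilin-3, fell from 77.6 ± 8.84 to 20.3 ± 4.7, and COMP, the gene of cartilage oligomeric matrix protein, from 32.6 ± 11.4 to 7.28 ± 1.34. HAPLN1, the link protein that fixes aggrecan to hyaluronan, had 1191, 1215, 1298 and 1179 normalized counts in WT Sor and 307, 298, 382 and 334 in WNK2- Sor. Hyaluronan itself is made at the cell surface by HAS2, and this gene showed a large loss. It had 4204, 3946, 4398 and 4052 normalized counts in WT Sor and 194, 142, 176 and 175 in WNK2- Sor, a 24.1-fold difference (log2 fold change -4.59 ± 0.13, edgeR adjusted p = 1.64e-19), although its neighbours were somewhat higher (median 0.44).

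Of these genes COL2A1 lost more in isotonic medium than under sorbitol. Its isotonic difference was -3.71 ± 0.29, and the difference between media was 1.43 ± 0.40 (edgeR adjusted p = 0.0275), or 2.55 ± 0.40 with the WNK2 trans Ctr libraries (edgeR adjusted p = 0.000242). For HAPLN1 the difference between media was 0.67 ± 0.18 (edgeR adjusted p = 0.0191) with WT Ctr and -0.14 ± 0.18 (edgeR adjusted p = 0.837) with WNK2 trans Ctr, so it was called with the former alone. For ACAN the difference between media passed the test with neither comparator, and its sign turned (-1.21 ± 0.56, edgeR adjusted p = 0.191, with WT Ctr and 0.17 ± 0.57, edgeR adjusted p = 0.951, with WNK2 trans Ctr).

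Other collagens followed the same direction. Of 21 interstitial and pericellular collagen genes tested, 15 were lower and 3 higher, and 13 of the lower ones changed at least 2-fold. COL3A1, a fibrillar collagen of soft connective tissue, had 13214, 12949.5, 12128 and 12218 normalized counts in WT Sor and 1086, 1091, 999 and 1086 in WNK2- Sor. The loss was 11.9-fold (log2 fold change -3.57 ± 0.09, edgeR adjusted p = 7.57e-20), against a neighbour median of 0.39. COL8A2 fell from 535 ± 57.2 to 39.8 ± 18.5 and COL15A1, of basement membrane zones, from 175 ± 10.8 to 43.3 ± 5.65. The 3 that rose were COL13A1, a transmembrane collagen (192 ± 13.5 to 628 ± 77.05), COL8A1 (333 ± 36.3 to 559 ± 44.6, median of neighbours 0.41) and COL27A1 (2152 ± 118 to 2828 ± 366). Without WNK2- Sor replicate 2 COL27A1 was not called (0.33, edgeR adjusted p = 0.0617). Of the enzymes that modify and cross-link collagen, 13 of 18 were lower and 3 higher. The lysyl oxidase genes moved apart, with LOX (-1.23 ± 0.35) and LOXL3 (-1.12 ± 0.11) lower and LOXL1 higher (0.72 ± 0.12, median of neighbours 0.34). PCOLCE, an enhancer of procollagen cleavage, fell from 80.4 ± 23.6 to 22.6 ± 3.08, and the lysyl hydroxylase PLOD3 rose by 0.55 ± 0.12.

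Matrix glycoproteins and small proteoglycans were also more often lower (16 of 25) than higher (5). VCAN, the gene of the large proteoglycan versican, had 467, 556, 508 and 423 normalized counts in WT Sor and 13.7, 11.7, 19.3 and 18.7 in WNK2- Sor (log2 fold change -4.95 ± 0.28, edgeR adjusted p = 2.03e-13). In isotonic medium the log2 fold change of VCAN was -5.05 ± 0.33. POSTN, the gene of periostin, fell from 6838 ± 239 to 1125 ± 118, and FBLN2, of fibulin-2, from 151 ± 8.41 to 18.8 ± 2.6. The 3 largest rises were ABI3BP, an extracellular matrix protein, which went from 46.7 ± 15.5 to 581 ± 65.3, CCN3 (25.4 ± 5.85 to 69.6 ± 11.5) and THBS1. THBS1, the gene of thrombospondin-1, an activator of latent TGF-beta, rose from 5306 ± 532 to 14015 ± 1229.5 (1.40 ± 0.26, median of neighbours 0.33). SULF1, which removes sulfate groups from heparan sulfate outside the cell, was among the largest losses of the whole comparison. It had 17193, 17007, 19659.9 and 18721 normalized counts in WT Sor and 178, 136, 151 and 169 in WNK2- Sor, a 114-fold difference (log2 fold change -6.84 ± 0.14, edgeR adjusted p = 8.76e-22).

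Among the genes of matrix breakdown, MMP3 (stromelysin-1) stood out. It had 23.95, 17.9, 24.4 and 21.4 normalized counts in WT Sor and 1493, 1567, 1518 and 1619 in WNK2- Sor, which is 70.03-fold higher (log2 fold change 6.13 ± 0.22, edgeR adjusted p = 4.29e-17). In isotonic medium MMP3 had 5.01 ± 2.12 in WT Ctr and 84.4 ± 12.9 in WNK2- Ctr. The genotype difference was larger under sorbitol by 2.11 ± 0.51 (edgeR adjusted p = 0.00989), or by 1.77 ± 0.53 with WNK2 trans Ctr, which missed the threshold (edgeR adjusted p = 0.0672). Of the 10 matrix metalloproteinases tested, 6 were lower and 2, MMP3 and MMP9, were higher. MMP13, the main collagenase of type II collagen, fell from 119 ± 11.8 to 55.6 ± 10.1 (log2 fold change -1.10 ± 0.17, edgeR adjusted p = 9.02e-06). MMP16, a membrane-type enzyme, fell from 2814 ± 96.3 to 451 ± 50.2, the gelatinase MMP2 from 3100.3 ± 95.6 to 1272 ± 48.4, and MMP11 from 172 ± 20.9 to 30.97 ± 8.94. The gelatinase MMP9 was higher, at 271 ± 49.6 compared with 181 ± 19.9 (log2 fold change 0.58 ± 0.19, edgeR adjusted p = 0.0123), while its neighbours were lower (median -0.60). Without WT Sor replicate 4 MMP9 was not called (0.51, edgeR adjusted p = 0.0531).

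The ADAMTS proteases were divided, with 5 of 14 higher and 5 lower. ADAMTS5, an aggrecanase, had 314, 329, 293 and 262 normalized counts in WT Sor and 24.6, 25.01, 31.9 and 32.7 in WNK2- Sor (log2 fold change -3.40 ± 0.25, edgeR adjusted p = 4.69e-11, median of neighbours 0.42). ADAMTS3, which processes procollagen, fell from 207 ± 23.8 to 9.36 ± 3.37 (-4.44 ± 0.28, median of neighbours 0.38). ADAMTS6 rose from 413 ± 10.5 to 1883 ± 127, ADAMTS17 from 33.3 ± 6.26 to 204 ± 31.8 (median of neighbours 0.46) and ADAMTS9 from 21.3 ± 7.57 to 71.1 ± 9.31. ADAMTS9 was lower in the null libraries in isotonic medium (-0.81 ± 0.28), and the difference between media was 2.54 ± 0.40 (edgeR adjusted p = 0.000179), or 2.00 ± 0.41 with WNK2 trans Ctr (edgeR adjusted p = 0.00415). All 5 protease inhibitors tested were called, 2 higher and 3 lower. Both of the higher ones rose at least 2-fold, the larger with a log2 fold change of 4.33. SERPINE2, a secreted inhibitor of serine proteases, had 13649.7, 13146, 13961 and 14308 normalized counts in WT Sor and 2857, 2601, 3109 and 2874 in WNK2- Sor. The null libraries were all low (log2 fold change -2.27 ± 0.11, edgeR adjusted p = 8.98e-15). TIMP2 (-0.37 ± 0.11) and RECK (-0.87 ± 0.13, median of neighbours -0.68), both inhibitors of metalloproteinases, were lower.

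**Figure D3:**
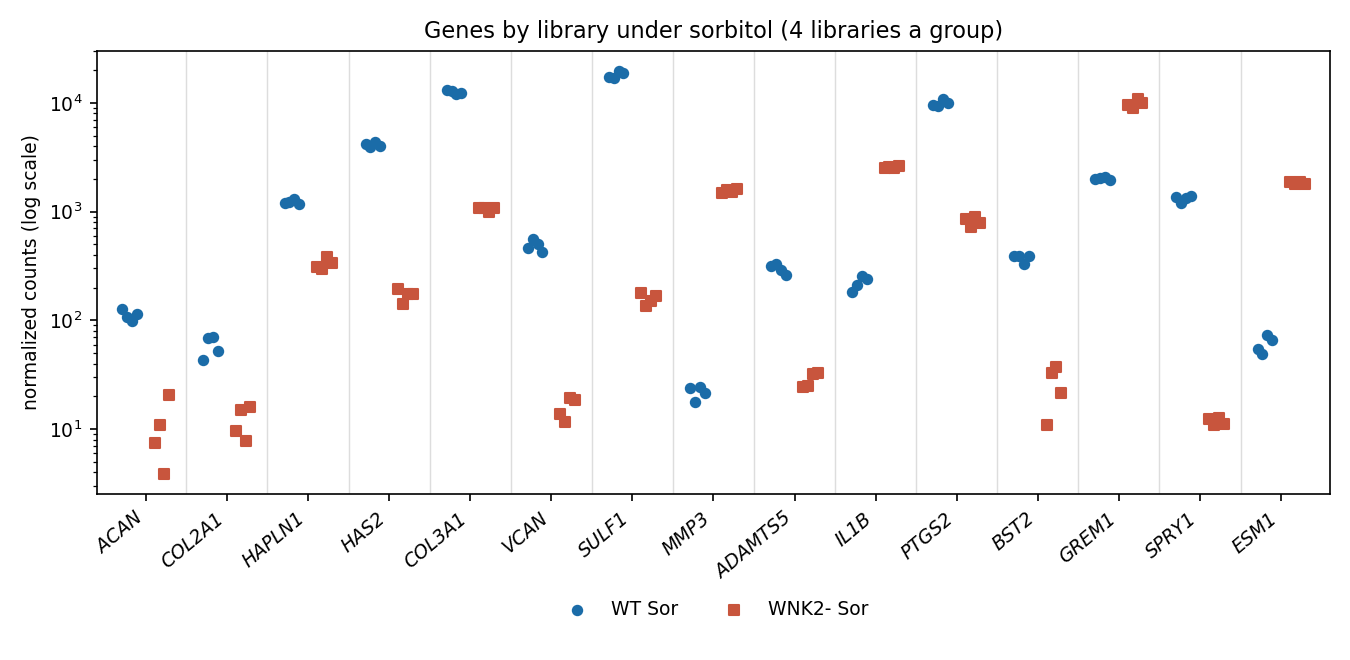
Normalized counts (log axis) of 15 genes of matrix, matrix breakdown, inflammation and signalling in each of the 4 WT Sor and 4 WNK2- Sor libraries. Points are libraries and the groups do not overlap for these 15 genes. Genes not taken from the study's text were named only where the groups did not overlap, which held for 53.9% of all tested genes. MMP3, IL1B, ESM1 and GREM1 are higher and the other 11 lower in WNK2- Sor.

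Chondrocyte transcription factors and genes of hypertrophy, taken as a single list, were not changed as a block (5 of 14 higher, 4 lower). RUNX2, which drives chondrocyte hypertrophy and bone formation, had 779, 746, 804 and 838 normalized counts in WT Sor and 209.6, 238, 256 and 254 in WNK2- Sor (log2 fold change -1.73 ± 0.12, edgeR adjusted p = 5.88e-12). RUNX3 also fell (-1.26 ± 0.11), and RUNX1 rose (0.95 ± 0.10). EPAS1, the gene of HIF-2 alpha, rose from 5118 ± 95.3 to 9507 ± 387, while HIF1A had 377 ± 39.2 and 381 ± 25.96 and was not called (log2 fold change 0.01 ± 0.27, edgeR adjusted p = 0.972, median of neighbours 0.69).

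The inflammatory genes did not move in a single direction. IL1B, the gene of interleukin-1 beta, the cytokine most used to provoke cartilage breakdown in culture, had 183, 211, 256 and 239 normalized counts in WT Sor and 2500.0, 2552, 2539.6 and 2631 in WNK2- Sor (log2 fold change 3.52 ± 0.16, edgeR adjusted p = 4.4e-15). IL1A, the gene of interleukin-1 alpha, had 25.04, 38.2, 32.5 and 24.5 in WT Sor and 144, 110.1, 135 and 119.7 in WNK2- Sor (log2 fold change 2.08 ± 0.26, edgeR adjusted p = 2.69e-07). Both lie in the same stretch of chromosome 2, with neighbour medians of 0.44 and 0.44. IL1R1, the receptor for both, was lower, at 86.5 ± 12.1 compared with 646 ± 66.1 (log2 fold change -2.90 ± 0.22, edgeR adjusted p = 7.49e-11). Altogether 4 of 14 interleukins and colony-stimulating factors were higher and 5 lower. IL6 had 1464, 1557, 1786 and 1737 normalized counts in WT Sor and 623, 585, 638 and 549.7 in WNK2- Sor, and CSF3 fell from 321 ± 22.6 to 62.7 ± 17.02 (median of neighbours -0.62). IL11 fell from 5499.5 ± 205 to 2789 ± 497 (median of neighbours -0.77), and IL32 rose from 89.1 ± 19.2 to 242 ± 19.7.

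Of 10 chemokines tested, 8 were lower and 2 were higher. CXCL8, the neutrophil chemokine interleukin-8, had 581, 657, 644 and 680.0 normalized counts in WT Sor and 1108, 985, 1311 and 1000.2 in WNK2- Sor (log2 fold change 0.78 ± 0.13, edgeR adjusted p = 1.43e-05). In isotonic medium CXCL8 was lower in WNK2- Ctr than in WT Ctr (-1.01 ± 0.13, edgeR adjusted p = 4.57e-07) but higher than in WNK2 trans Ctr (1.48 ± 0.13, edgeR adjusted p = 9.57e-10), so no direction can be given for it there. Its direction under sorbitol turned with the comparator too, at -1.71 ± 0.13 relative to WNK2 trans Sor (edgeR adjusted p = 7.19e-11). CXCL6 fell from 385 ± 33.9 to 96.3 ± 16.5, and CXCL12 from 74.03 ± 2.8 to 24.2 ± 3.08. Of the cytokine receptors 12 of 16 were lower and 2 higher. IL6ST, the shared signalling subunit gp130, fell (-1.43 ± 0.39), as did LIFR (-1.49 ± 0.20), and IL13RA2, a decoy receptor, rose from 24.7 ± 7.2 to 168 ± 12.7. Of 18 NF-kB subunits and feedback genes 2 were higher and 6 lower, a share of 44.4% close to the 46.3% of all genes. NFKB1 rose from 852 ± 5.98 to 1267 ± 28.4 and the kinase RIPK2 from 752 ± 43.3 to 1148 ± 117. NFKBIZ fell from 2571 ± 29.7 to 704 ± 42.6, RELB from 997 ± 119 to 372 ± 85.2 (median of neighbours -0.41), and NFKBIA, the inhibitor of NF-kB, from 2087 ± 91.3 to 1194 ± 109 (median of neighbours 0.39).

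Genes of prostaglandin E2 synthesis were lower. PTGS2 (cyclooxygenase-2) had 9498, 9407, 10924 and 10072 normalized counts in WT Sor and 862, 726, 889.7 and 785 in WNK2- Sor, a 12.2-fold loss (log2 fold change -3.61 ± 0.17, edgeR adjusted p = 4.1e-15). PLA2G4A, the phospholipase that frees arachidonic acid, fell from 1407 ± 45.3 to 284 ± 23.3, and PTGES, the inducible prostaglandin E synthase, from 442 ± 33.2 to 48.6 ± 6.18. Of the 10 prostaglandin and nitric oxide genes tested, 6 were lower, and the only member higher was PTGES3 (0.42 ± 0.11), a co-chaperone with prostaglandin E synthase activity. Complement genes were lower too (9 of 13 lower, 2 higher). C3, the central component, had 2215, 2422, 2293 and 2340.0 normalized counts in WT Sor and 394, 419, 312 and 451 in WNK2- Sor (log2 fold change -2.56 ± 0.09, edgeR adjusted p = 6.12e-17). The proteases that start the classical pathway fell as well, C1R from 4765 ± 104 to 503 ± 61.1 and C1S from 2605 ± 69.9 to 513 ± 42.3 (median of neighbours -0.36). CD55, which protects cells from complement, rose by 0.64 ± 0.10.

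Interferon-stimulated genes were lower almost throughout. Of 35 genes 24 were tested, 21 were lower, none was called higher, and the median log2 fold change was -1.07. BST2 (tetherin), a protein that holds budding virus on the cell, had 389, 387, 332 and 390.0 normalized counts in WT Sor and 10.9, 32.5, 37.7 and 21.5 in WNK2- Sor (log2 fold change -3.89 ± 0.32, edgeR adjusted p = 2.69e-10). OASL, a relative of the oligoadenylate synthetases, fell from 495 ± 50.7 to 48.04 ± 6.81, and the GTPase gene MX2 from 246 ± 28.2 to 54.2 ± 3.93. In isotonic medium 19 of the 24 were lower than in WT Ctr as well. The interferon-stimulated response element, searched as the letters GAAANNGAAA on both strands between 250 bases before and 50 bases after the RefSeq start, was found for 17 of the 26 list members with a promoter sequence, and for 10 of the 16 lower members with one. It was found for 1195 of 27305 genes with a promoter (4.38%). The windows of 4 genes with the element are shown with the matches in capitals because these genes were all lower in the null libraries. They were chosen for the element after their values were seen, and come from RefSeq on GRCh38.p14.
BST2, chr19:17405735-17405770, minus strand: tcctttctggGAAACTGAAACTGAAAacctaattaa
ISG15, chr1:1013374-1013409, plus strand: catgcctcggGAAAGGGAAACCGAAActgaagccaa
RSAD2, chr2:6877622-6877651, plus strand: ctgtttcaacTTTCAGTTTCacatgtggaa
DDX60, chr4:168318786-168318850, minus strand: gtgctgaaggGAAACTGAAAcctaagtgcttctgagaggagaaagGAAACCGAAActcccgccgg
In BST2 and ISG15 the capitals are a pair of overlapping matches in tandem, in DDX60 a pair of separate ones, and in RSAD2 a single match that lies on the opposite strand. The log2 fold changes of ISG15, a ubiquitin-like modifier, RSAD2 (viperin) and DDX60, a helicase, were -0.85, -1.93 and -1.52. IFI27, whose promoter also holds matches, was not called (0.03).

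The proteins that present peptides on MHC class I were lower in 8 of 12 genes, but 7 of the tested genes lie in stretches where neighbours moved together, chiefly the HLA region on chromosome 6, and only 2 of the 8 lower genes lie outside such stretches. HLA-B fell (-1.24 ± 0.15) with a neighbour median of -0.49, and PSMB9, a subunit of the immunoproteasome, fell (-1.23 ± 0.16) with a neighbour median of -0.78. HLA genes are near-identical to one another, and how reads were shared between them is uncertain.

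Of the Hedgehog pathway, through which cells pattern cartilage and bone, 15 of 17 genes were tested, 8 were lower and 1 higher. The 3 largest losses among well-counted members were on the receptor side. GAS1, a co-receptor of Hedgehog ligands, had 732, 739.5, 595 and 717 normalized counts in WT Sor and 27.3, 24.2, 18.4 and 21.5 in WNK2- Sor (log2 fold change -4.90 ± 0.24, edgeR adjusted p = 1.19e-14). The co-receptor BOC fell from 287 ± 16.5 to 32.8 ± 7.39 (median of neighbours -0.30) and the transducer SMO from 723 ± 85.04 to 306 ± 38.6 (median of neighbours 0.33). EVC, a ciliary protein of the pathway, was the single gene higher (0.96 ± 0.19). PTCH1, the Hedgehog receptor and itself a target of GLI factors, was lower (-0.71), and its promoter alone of the 14 sequences held the GLI site GACCACCCA, searched on both strands and found for 81 of 27305 genes (0.297%). The window is shown because it is the only match in the list.
PTCH1, chr9:95509420-95509448, minus strand: gttgcctaccTGGGTGGTCtctctacttt
The capitals are the site as read on the opposite strand, and PTCH1 was chosen for it after its values were seen.

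Bone morphogenetic proteins (BMPs) and TGF-beta ligands were lower in 8 of 18 genes and higher in 1, a share of 50% called beside 46.3% of all genes. BMP2, which promotes chondrocyte differentiation, had 253, 258, 220.2 and 236 normalized counts in WT Sor and 47.8, 51.7, 41.5 and 48.6 in WNK2- Sor (log2 fold change -2.34 ± 0.17, edgeR adjusted p = 3e-11), TGFB1 fell from 3426 ± 125 to 1842 ± 221, and GDF11 from 909 ± 39.7 to 349 ± 24.2. Their secreted antagonists went both ways. GREM1, which binds and blocks BMP2, had 1999, 2031, 2083 and 1941 normalized counts in WT Sor and 9528, 8986, 10753 and 9958 in WNK2- Sor (log2 fold change 2.28 ± 0.12, edgeR adjusted p = 4.08e-14, median of neighbours 0.41). NOG (noggin) rose from 43.1 ± 6.16 to 152 ± 24.3 and FSTL1 from 84.8 ± 8.81 to 553 ± 35.4, whereas CHRD (chordin) fell from 102 ± 24.96 to 14.4 ± 4.81. ID1, a transcriptional target of BMP signalling, fell from 4100.4 ± 316 to 1662 ± 128 (-1.30 ± 0.15), and LTBP1, which anchors latent TGF-beta, from 839 ± 48.5 to 275 ± 33.3. In isotonic medium the log2 fold change of GREM1 was 1.13 ± 0.11 relative to WT Ctr and 2.60 ± 0.12 relative to WNK2 trans Ctr, so it was higher against either.

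WNT ligands and receptors were mostly lower (16 of 24, with 4 higher), and the related ligands WNT5A and WNT5B moved in opposite directions. WNT5A had 10643, 11163, 11648 and 10796 normalized counts in WT Sor and 2742, 2268, 2623 and 2649 in WNK2- Sor. WNT5B had 219, 166, 186 and 202 in WT Sor and 1229.9, 1292, 1149 and 1195 in WNK2- Sor. In the null libraries WNT5A was all low (log2 fold change -2.11 ± 0.10, edgeR adjusted p = 7.91e-15) and WNT5B all high (log2 fold change 2.65 ± 0.14, edgeR adjusted p = 5.46e-14). WNT6 fell from 268 ± 22.4 to 17.2 ± 7.88, WNT9A rose from 58.2 ± 8.75 to 253 ± 22.9, and the receptor FZD7 fell from 1594 ± 62.1 to 356 ± 49.7. Of WNT inhibitors and targets 8 of 18 were lower and 1 higher, a share of 50% called beside 46.3% of all genes. FRZB, a secreted WNT antagonist of articular cartilage, fell from 2799.9 ± 91.8 to 708 ± 51.6 (-1.98 ± 0.09), and DKK3 fell as well (-0.79 ± 0.09, median of neighbours 0.31).

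Fibroblast growth factor genes showed 5 higher and 4 lower of 11 tested. The ligand FGF5 had 42.5, 60.9, 79.1 and 76.6 normalized counts in WT Sor and 683, 572, 743 and 638 in WNK2- Sor (log2 fold change 3.34 ± 0.22, edgeR adjusted p = 3.86e-12). FGF2, a mitogen stored in the cartilage matrix, had 445 ± 32.8 and 608 ± 57.5 and was not called (log2 fold change 0.45 ± 0.21, edgeR adjusted p = 0.0828), although the libraries did not overlap and a fit of the 8 libraries alone called it (edgeR adjusted p = 0.000256). The receptors were lower, FGFR3, a brake on chondrocyte proliferation, from 730.2 ± 34.4 to 251 ± 55.5 and FGFR4 from 674 ± 19.2 to 132 ± 17.04. Of sprouty genes and other feedback and target genes of the ERK pathway, 9 of 19 were lower and 3 higher. SPRY1 (sprouty 1) was close to absent in the null libraries, with 1357, 1204, 1337 and 1406 normalized counts in WT Sor and 12.3, 10.8, 12.6 and 11.2 in WNK2- Sor (log2 fold change -6.80 ± 0.18, edgeR adjusted p = 1.2e-19). SPRY2 fell from 559 ± 26.4 to 212 ± 19.3. EGR1, an immediate early transcription factor, had 3435, 3926, 3347 and 3154 normalized counts in WT Sor and 119, 95.04, 142 and 98.2 in WNK2- Sor (log2 fold change -4.93 ± 0.25, edgeR adjusted p = 2.51e-14), and FOS fell from 1657 ± 382 to 106 ± 17.7 (-3.96 ± 0.25, median of neighbours 0.50). The phosphatase genes DUSP5 (0.70 ± 0.09) and DUSP7 (0.92 ± 0.11) were higher. The loss of EGR1 was larger under sorbitol than in isotonic medium (difference -2.54 ± 0.31, edgeR adjusted p = 5.93e-06), also with WNK2 trans Ctr (-2.07 ± 0.31, edgeR adjusted p = 0.000148).

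Ligands and receptors of the EGF family moved apart, with 6 of 14 higher and 5 lower. The ligand HBEGF had 324, 305, 351 and 345 normalized counts in WT Sor and 1442, 1479.9, 1539 and 1611 in WNK2- Sor, and NRG1 rose from 355 ± 15.05 to 1135 ± 76.6. The receptors ERBB2 (2026 ± 86.97 to 783 ± 121, median of neighbours -0.59) and ERBB3 (78.01 ± 14.7 to 20.4 ± 7.76, median of neighbours -0.30) fell. Of NOTCH signalling genes 12 of 26 were lower and 7 higher. The receptor NOTCH3 had 4569, 4594, 4506 and 4309 normalized counts in WT Sor and 339, 361, 317 and 380.5 in WNK2- Sor (log2 fold change -3.68 ± 0.22, edgeR adjusted p = 6.21e-13). The target gene HEY1 fell from 275 ± 6.75 to 24.7 ± 7.48 and HES1 from 1854 ± 97.9 to 694 ± 27.8 (median of neighbours 0.44), while NUMB, an inhibitor of NOTCH, rose by 0.56 ± 0.07 (median of neighbours 0.30).

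Integrins, the receptors that tie cells to the matrix, were called in 50% of 18 genes, close to the 46.3% of all genes, with 3 higher and 6 lower. ITGA11, a collagen receptor subunit, had 3324, 3338, 3789 and 3464 normalized counts in WT Sor and 461, 498, 438 and 517 in WNK2- Sor (log2 fold change -2.86 ± 0.09, edgeR adjusted p = 1.23e-18). ITGA7, a laminin receptor subunit, fell from 615 ± 31.8 to 151 ± 27.9 (median of neighbours -0.34). RAC GTPases, which drive actin branching, and their partners were higher in 16 of 36 genes and lower in 4. Among well-counted members the largest rises were the WAVE complex subunit CYFIP2 (1.97 ± 0.28), the kinase PAK3 (1.62 ± 0.17, median of neighbours 0.31) and BAIAP2 (1.12 ± 0.13), and RAC3 fell (-1.19 ± 0.35). Contractile and SRF-dependent genes were higher in 10 of 27 and lower in 5. ACTN1, of the actin crosslinker alpha-actinin-1, rose from 17265 ± 242 to 38410.4 ± 1733, FLNC (filamin C) from 2414 ± 156 to 9365 ± 1042, and TAGLN (transgelin) from 383 ± 32.9 to 1387 ± 113, while CNN1 (calponin) fell from 322 ± 43.1 to 154 ± 42.7 (median of neighbours -0.33). Among the cadherins, which join cells to one another, CDH2 fell from 9038 ± 513 to 3858 ± 292 and CDH11 from 4878 ± 96.6 to 2144 ± 96.4, and CDH4 rose from 464 ± 45.6 to 3475 ± 407.

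Genes of nuclear transport that were called were higher, with a single exception. Of 30 genes tested 18 were higher and 1 was lower, although none changed 2-fold and the median was 0.30. RAN, the GTPase that sets the direction of transport, had 7116, 6858, 6935 and 7059.9 normalized counts in WT Sor and 13115, 12381, 15162 and 12926 in WNK2- Sor (log2 fold change 0.94 ± 0.08, edgeR adjusted p = 5.47e-10). RANGAP1, which makes RAN hydrolyse GTP, rose by 0.86 ± 0.12 and the exportin XPO6 by 0.63 ± 0.06, and the importin IPO9 was the gene that fell (-0.37 ± 0.09).

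Circadian clock genes were called in 57.9% of 19, 4 higher and 7 lower. The activator NPAS2 rose from 374 ± 18.9 to 731 ± 50.4 and the repressor CRY1 from 885 ± 19.7 to 1255 ± 50.5. BHLHE40 fell from 3002 ± 79.5 to 1312 ± 25.05, PER1 from 588 ± 16.7 to 263 ± 32.7 and DBP from 177 ± 15.9 to 59.5 ± 10.7, the last 2 in stretches with neighbour medians of -0.60 and -0.69. The E-box CACGTG, a palindrome, was found in the promoters of 6 of 21 clock genes and of 2396 of 27305 genes (8.77%). HOX genes, which keep positional identity, were lower in 8 of 16 and higher in 1, with HOXA2 (-1.84 ± 0.18) and HOXB13 (-0.94 ± 0.15) among the lower ones.

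Genes of DNA replication and mitosis were expressed in full (40 of 40 tested) and went both ways, 16 higher and 10 lower, none of them 2-fold. CDC25A rose by 0.92 ± 0.09 and FOXM1 by 0.65 ± 0.10, while the helicase subunit MCM6 (-0.88 ± 0.11, median of neighbours 0.31) and TOP2A (-0.69 ± 0.14, median of neighbours -0.52) fell. Of cell cycle inhibitors and p53 targets 6 of 15 were lower and 1 higher, a share of 46.7% called beside 46.3% of all genes. The lower ones included CDKN1B (2229.8 ± 67.1 to 1009 ± 57.8) and CDKN1C (312 ± 17.7 to 132 ± 7.01).

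Cholesterol synthesis genes were called in 39.1%, beside 46.3% of all genes, 2 higher and 7 lower of 23. Of the 7 lower genes 4 fell at least 2-fold. The regulators were among the lower ones, SREBF2 from 6758 ± 43.5 to 2884 ± 177 (median of neighbours -0.44) and INSIG1 from 4434 ± 141 to 1489 ± 102. The only 2 called higher were the enzymes SQLE (0.38 ± 0.07, median of neighbours 0.54) and NSDHL (0.62 ± 0.13). With WNK2 trans Sor in place of WT Sor 0 were higher and 12 lower. SCD, which desaturates fatty acids, fell from 31589.6 ± 1138 to 6764 ± 322. Glycolysis and hypoxia response genes were called in 81.5% of 27, 15 higher and 7 lower. HK2 rose from 391 ± 42.2 to 1082 ± 44.8, HK1 from 2505 ± 128 to 5168 ± 282 and ADM from 1227 ± 90.9 to 3042 ± 114, whereas CA9, a standard hypoxia target, fell from 113 ± 21.4 to 14.8 ± 5.22 (median of neighbours -0.31). The unfolded protein response and ATF4 targets were lower in 14 of 24 and higher in 2, with XBP1 (-0.90 ± 0.10, median of neighbours -0.40), PHGDH (-0.87 ± 0.13, median of neighbours 0.30) and CHAC1 (-1.01 ± 0.26) lower. Targets of the antioxidant factor NRF2 were higher in 8 of 21 and lower in 2, a share of 47.6% called beside 46.3% of all genes. OSGIN1 rose from 88.3 ± 17.8 to 405 ± 63.02 (median of neighbours 0.44) and NQO1 from 1615 ± 174 to 3647 ± 226.

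Genes that the study compiled from other data sets as changed in osteoarthritis (OA) moved both ways. Besides OA against healthy cartilage, its sources included intact and degraded cartilage of the same patients. They also included normal chondrocytes treated with fibronectin fragments in culture. The words OA tissue stand here for these sources together. Of 80 genes higher in OA tissue, 36 were higher and 28 lower in WNK2- Sor, with a median log2 fold change of 0.27. Of 52 genes lower in OA tissue, 10 were higher and 21 lower, with a median of -0.17. The shares called were 80% and 59.6%, beside 46.3% of all genes. AMTN (amelotin) and ABI3BP were among the rises of the first list, AMTN from 69.7 ± 11.9 to 386 ± 18.5 (median of neighbours 0.38), and PAPPA, a protease of IGF-binding proteins, fell from 1988 ± 185 to 319 ± 15.3. In the second list DHRS3, a retinal reductase, fell from 5317 ± 199 to 624 ± 49.1 (median of neighbours -0.36), and TLN2 (talin 2) rose from 417 ± 32.2 to 802 ± 31.99 (median of neighbours 0.34). A further list of the 20 genes that the study's text names for WNK2 and sorbitol, 9 higher and 9 lower here, was chosen by the study on these and other libraries of the series and is not independent evidence of any direction.

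The largest changes among well-expressed protein-coding genes reached beyond these lists. ESM1, an endothelial proteoglycan, had 54.4, 48.98, 74.1 and 66.4 normalized counts in WT Sor and 1881, 1782, 1857 and 1789 in WNK2- Sor (log2 fold change 4.90 ± 0.18, edgeR adjusted p = 4.29e-17). MYCT1 rose from 39.2 ± 7.36 to 559 ± 49.1, GFRA1, a GDNF co-receptor, from 96.9 ± 17.01 to 1287 ± 92.6, RELN (reelin) from 374 ± 36.6 to 4689.9 ± 444, and ANKRD1 from 462 ± 48.5 to 5687 ± 187. Beside SULF1, EGR1, HAS2 and FOS, the largest falls of such genes were SCG2 (secretogranin II), with 1682, 1651, 1573 and 1632 normalized counts in WT Sor and 54.6, 53.4, 64.7 and 50.5 in WNK2- Sor, the cholesterol exporter ABCG1 (2568 ± 138 to 137 ± 10.7), RANBP3L (2599.6 ± 468 to 154 ± 37.3), the protocadherin DCHS1 (1081 ± 58.02 to 69.7 ± 11.8), CPXM1 (854 ± 42.9 to 55.2 ± 14.3) and TMOD1, an actin-capping protein (958 ± 45.3 to 63.5 ± 7.82). Among noncoding genes LINC01204 rose from 60.5 ± 14.3 to 901 ± 110.2. Among the most abundant genes HEG1 fell from 20990.3 ± 857 to 5085 ± 196, the imprinted gene MEST from 11983 ± 528 to 2003 ± 215 and the secreted kinase FAM20C from 13268 ± 409 to 3639 ± 304, and MYOF (myoferlin) rose from 2549.9 ± 103 to 10684 ± 339. MT-RNR1, the mitochondrial 12S ribosomal RNA, had 10711, 11303, 10396 and 10976 normalized counts in WT Sor and 32928, 41326, 28396 and 59580.5 in WNK2- Sor. Its spread among the null libraries was wide, and it was also higher in the null libraries in isotonic medium (2.55 ± 0.24). These libraries were selected for poly(A) RNA, and the part of that selection in this value was not tested.

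The genotype difference was tested against that in isotonic medium. It differed between media for 1436 of 16600 genes (8.65%), and for 849 without WNK2- Sor replicate 3 and 944 without WNK2- Ctr replicate 2. With the libraries labelled WNK2 trans Ctr in place of WT Ctr the count was 562. Of 95 genes named here with a difference between media, 27 were called in the same direction with either comparator and 22 turned sign, so 68 of these calls depended on the isotonic comparator. Among genes counted well, the 5 with the smallest p were ITGA11, KLF9, ZNF114, SCG2 and VCAM1, and ITGA11 and SCG2 were both lost more under sorbitol (differences of -2.06 ± 0.12 and -2.11 ± 0.15, or -0.77 ± 0.11 and -1.40 ± 0.15 with WNK2 trans Ctr). KLF9, a transcription factor induced by glucocorticoids, had 2773, 2599.7, 2639 and 2767 normalized counts in WT Sor and 331, 313, 399.9 and 328 in WNK2- Sor, and 1636 ± 109 in WT Ctr and 880.1 ± 86.5 in WNK2- Ctr. VCAM1, a cell adhesion molecule, had 1928, 2054, 2143 and 2100.1 normalized counts in WT Sor and 195, 131, 194 and 168 in WNK2- Sor, and 2802 ± 391 in WT Ctr and 1128 ± 143 in WNK2- Ctr. Both genes were lower in the null libraries in either medium, and more so under sorbitol (differences of -2.08 ± 0.14 and -2.26 ± 0.17, or -1.09 ± 0.13 and -1.70 ± 0.17 with WNK2 trans Ctr). The zinc finger gene ZNF114 had 69.7, 62.1, 65.9 and 78.6 in WT Sor and 705, 660.3, 533 and 657 in WNK2- Sor, and 74.1 ± 19.1 in WT Ctr and 45.6 ± 3.96 in WNK2- Ctr. Its direction turned with the medium (difference 3.91 ± 0.26, edgeR adjusted p = 3.66e-10, median of neighbours -0.39), also with WNK2 trans Ctr (4.14 ± 0.26, edgeR adjusted p = 1.23e-10). All 5 genes were called with either comparator, but both keep the WT Sor libraries. With WNK2 trans Sor in place of WT Sor the sorbitol difference was -0.93 for ITGA11 and -1.44 for KLF9. It was -3.98 for SCG2, -2.59 for VCAM1 and 2.18 for ZNF114. In the same order the isotonic differences were -0.80, -0.89, -2.76, -1.31 and -0.70 relative to WT Ctr. Relative to WNK2 trans Ctr they were -2.10, -1.88, -3.47, -1.88 and -0.94. No difference between media was tested with WNK2 trans Sor. Of the lists, 13 of 21 collagens differed between media with WT Ctr and 2 with WNK2 trans Ctr. The counts were 10 and 5 of 25 matrix glycoproteins, 7 and 3 of 19 ERK feedback genes, and 8 and 6 of 27 contractile genes.

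**Figure D4:**
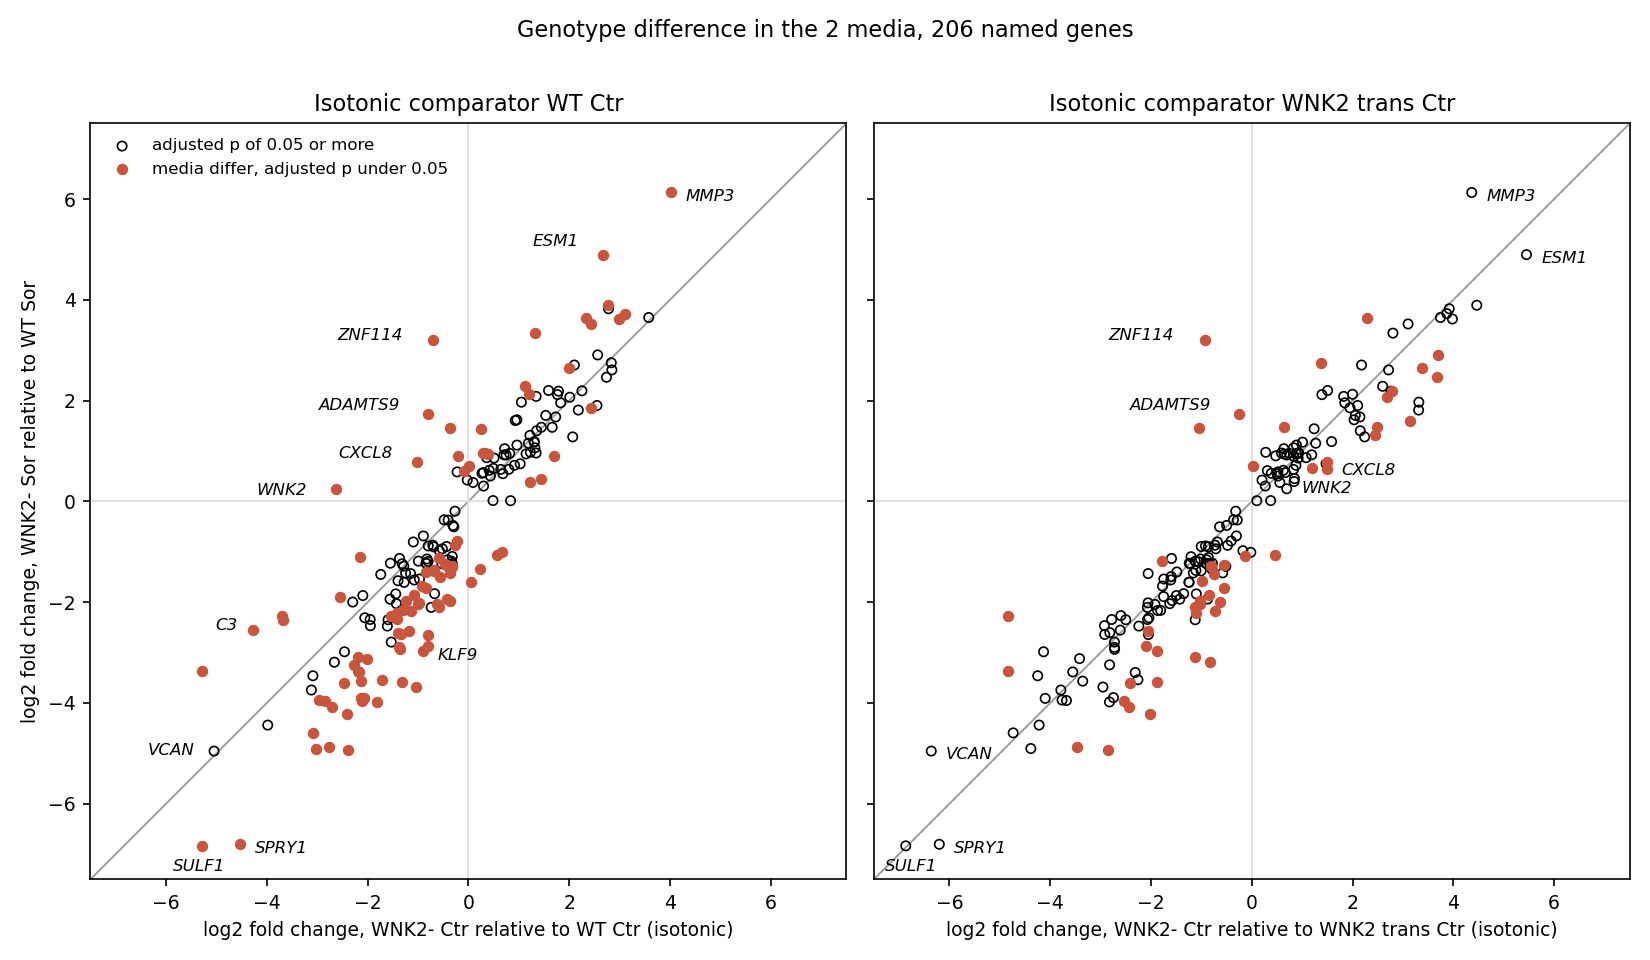
Log2 fold change of WNK2- Sor relative to WT Sor (y axes) against that of WNK2- Ctr in isotonic medium (x axes) for the named genes, relative to WT Ctr (left) and to WNK2 trans Ctr (right). Filled points differ between media at an adjusted p under 0.05, open points do not, and the line marks equal values; WNK2 moves from -2.63 to 0.69 on the x axis and CXCL8 from -1.01 to 1.48, while ZNF114 stays at the upper left.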

How the data were processed

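RNA-seq was analysed from 4 WT Sor and 4 WNK2- Sor libraries, fitted together with the other 16 libraries of the series. The authors deposited raw read counts per Ensembl gene, made on GRCh38 with HISAT2 2.2.1 and HTSeq 2.0.2 per the submitters' processing notes, which also name FastQC 0.11.9 and DESeq2 1.38.3. No strand setting is given in the sources used here, so reads of overlapping genes cannot be told apart, and HTSeq's default leaves shared reads uncounted. Symbols were taken from the reference table given with the files (62625 of 62703 identifiers) and positions from GENCODE 29 (58279).

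Counts were analysed in R 4.3.3 with edgeR 4.0.16 (TMM scaling, filterByExpr with a minimum of 10 counts and 15 in total, glmQLFit and glmQLFTest) in one fit of 6 group means, and p-values were Benjamini-Hochberg adjusted with a threshold of 0.05. The difference between media was the contrast of contrasts in that fit. On simulated counts edgeR recovered 80.8% of 193 changed genes with 6.59% false calls, and DESeq2 83.4% with 17.0% false calls. Far more genes were called in the data (46.3%) than were changed in the simulation, so these rates need not hold for the data. DESeq2 1.42.0, other scalings and filters, the 8 libraries alone, thinned counts, a GC and length trend, a replicate block, genes outside shifted stretches and each library left out were alternatives, and other libraries as the isotonic and as the sorbitol comparator were added after the data were seen.

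Genes named are those of the study's text, the 4 WNK kinases, the largest rises and falls over all genes, by gene type, among abundant genes and within each list (adjusted p under 0.05, no overlap between groups, a minimum mean level), and the 5 with the smallest p of the difference between media. A neighbour median is that of the 24 nearest tested genes, printed where it is 0.3 or more in size. The comparison, the gene lists and the tests were chosen with earlier results of these data known. Promoters were RefSeq windows on GRCh38.p14, searched on both strands. XIST and Y-linked genes were left out. Results for some genes that met the naming rule are not reported here.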

Additional observations from a re-analysis of the deposited data

Results flagged for a closer look

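Of 80 groups of 4 libraries (40 genes printed by library, in both groups), 3 held a library whose gap to the others exceeded Dixon's critical share of the range, and chance gives about 1 in 20. BST2 had 332 normalized counts in WT Sor replicate 3, below 387 to 390.0 in the others. GAS1 had 595 in the same library, below 717 to 740 in the others. COL3A1 had 999 in WNK2- Sor replicate 3, below 1086 to 1091.

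For 95 of the 206 genes named, the genotype difference under sorbitol differed from that in isotonic medium by edgeR's test of the interaction. Values are differences of log2 fold changes, sorbitol minus isotonic with WT Ctr. There were 66 below 0, and 62 of these genes were also lower in WNK2- Sor. The selection favours such a match of sign. Many genes were named for a large sorbitol difference, and each value contains that difference.

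With WNK2 trans Ctr in place of WT Ctr and WT Sor kept, 27 were called in the same direction, 20 below 0 and 7 above. Those below 0 include the immediate early genes EGR1 (-2.54) and FOS (-1.86) and the adhesion genes VCAM1 (-2.26) and ITGA11 (-2.06). The transcription factors KLF9 (-2.08), RUNX2 (-0.89) and RUNX3 (-0.81) and the WNT genes WNT5A (-1.53) and FRZB (-0.74) did so too. In lipid metabolism ABCG1 (-1.81), SCD (-0.81) and DHRS3 (-0.89) were below 0, as were PTGS2 (-1.15) and the interferon-stimulated MX2 (-1.04). The others below 0 were SCG2 (-2.11), CNN1 (-1.63), PIEZO2 (-1.41), MEST (-1.40), RANBP3L (-1.36) and FAM20C (-0.79). Above 0 were ZNF114 (3.91), ADAMTS9 (2.54), OASL (1.91), the matrix genes CCN3 (1.82), COL2A1 (1.43) and ABI3BP (1.31), and DUSP5 (0.69).

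The remaining 68 were not called in the same direction with WNK2 trans Ctr, and 22 of them turned sign. Of these 22, CXCL8 (1.80) and WNT5B (0.65) were called in the opposite direction. The others that turned were WNK2 itself (2.88), ESM1 (2.22), GREM1 (1.15), LINC01204 (1.12), ANKRD1 (0.63), GFRA1 (0.62), HAPLN1 (0.67) and CSF3 (1.34) above 0 with WT Ctr. Below 0 with WT Ctr they were HAS2 (-1.50), SULF1 (-1.54), TMOD1 (-1.83), POSTN (-1.20), COL15A1 (-1.04), PAPPA (-1.30), SERPINE2 (-0.73), EPAS1 (-0.81), LIFR (-0.94), BOC (-1.11), SPRY2 (-0.55) and SLC12A8 (-0.76).

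For the other 46 the sign was kept and the call was not, and a lost call does not show that the difference is absent. With WNK2 trans Ctr the values were -1.08 for ADAMTS5, 1.77 for MMP3, -0.84 for HES1 and -0.78 for TRPV4, and the values that follow are those with WT Ctr. Matrix genes of this kind were COL3A1 (-1.44), COL9A2 (-1.83), COL27A1 (-0.83), MATN3 (-1.51) and LOXL3 (-0.54), and proteases were MMP3 (2.11), MMP13 (1.05), MMP16 (-1.84), ADAMTS5 (-1.22) and CPXM1 (-0.99). Inflammatory genes were IL1B (1.09), IL32 (1.19), IL1R1 (-1.52), RIPK2 (0.69), CXCL12 (-1.65), C1R (-0.98), C3 (1.72) and BST2 (-1.76). Signalling genes were FGF2 (-0.996), FGF5 (2.02), SPRY1 (-2.28), BMP2 (-0.92), GDF11 (-0.70), ID1 (-0.98), GAS1 (-1.87), SMO (-0.77), NOTCH3 (-2.64) and HES1 (-1.05). Further signalling genes were WNT6 (-2.17), FZD7 (-0.87), DKK3 (-0.57), ERBB2 (-0.68) and PDGFRB (-1.61). Genes of transport and osmotic response were AKR1B1 (0.67), SLC6A9 (-1.58), TRPV4 (-0.97), NEDD4L (0.93), SGK3 (1.12) and RAN (0.54). The rest were DCHS1 (-1.11), HEG1 (-1.04), TAGLN (-0.57), NPAS2 (0.63), CA9 (-1.58), CHAC1 (-1.67) and PHGDH (-0.60).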

How the results depend on the processing

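The count of genes called under sorbitol (7690) was 5692 without genes in shifted stretches and 9804 with the 8 libraries alone (8044 with DESeq2), and ran from 6898 to 7269 with a library left out. The count changed at least 2-fold (2953) was 1884 where at least 10 counts were required in each of the 8 libraries, a setting that drops genes with few counts in either group, and 2806 to 2961 with a library left out. WNK2 (0.25, not called) was called with the 8 libraries alone (0.24) and with the GC content and length trend removed (0.61), and ran from 0.17 to 0.31 with a library left out. The difference between media (1436) was found for 562 genes with WNK2 trans Ctr as the comparator, 2007 with DESeq2, and 849 to 1908 with a library left out. The share of calls that were higher was 48.3% to 54.5% over the settings (51.1% as reported).

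With WNK2 trans Sor in place of WT Sor, 5523 genes were called, 1659 at least 2-fold, and WNK2 took the opposite sign (-3.08). Genes that turned sign and were called there were CXCL8 (-1.71), MMP9 (-1.33), ID1 (1.23), NOG (-1.13), NPAS2 (-0.61), ADM (-0.48) and CHAC1 (0.69). Turned in sign and not called were HIF1A (-0.31), IL1A (-0.0152), RIPK2 (-0.11), ADAMTS6 (-0.30), COL9A3 (0.53), SQLE (-0.0785), RUNX1 (-0.00261), CD55 (-0.21), CNN1 (0.0118), CDKN1C (0.19), TIE1 (-0.38), FGFR3 (0.12), HOXB13 (0.10), SMO (0.0338), RAC3 (0.42), DUSP5 (-0.11) and KCNMA1 (-0.0447), of which HIF1A had not been called before.

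Under the other settings, over 205 named genes and 3635 refitted values, 3615 kept their direction and side of the threshold. HIF1A, not called, took the opposite sign without the filter (-0.0234) and with the GC trend removed (-0.00397), and ran from -0.0488 to 0.0512 with a library left out. WNK4, not called either, did so without the filter (-0.022) and ran from -0.0128 to 0.031 with a library left out. Calls were lost for TIMP2 with the GC trend removed (-0.24, edgeR adjusted p = 0.096), MMP9 and COL27A1, and gained in 9 values of FGF2, WNK1, WNK3 and WNK4. Counts of members called moved by over 1.5 times in 22 of 900 values, in 13 lists; without genes in shifted stretches the Hedgehog list kept 5 calls, complement 7, ADAMTS proteases 6 and MHC class I 2. The cause of these changes was not tested.

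Replicate numbers did not pair the samples: deviations from the group means correlated at -0.05, 0.03, 0.03 and -0.02 between same-numbered libraries. With a replicate block 7568 genes were called, 2919 at least 2-fold, WNK2 was at 0.24 and the difference between media was found for 1323 genes. Depth limits genes with few counts in one group, where fold changes depend on the prior count, and thinning all libraries to the smallest total gave 7422 calls.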
